A study of Rattus norvegicus with 71 samples.

Results

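The genes described here encode the surfactant proteins of the lung: Sftpa1 (surfactant protein A), Sftpb (surfactant protein B), Sftpc (surfactant protein C) and Sftpd (surfactant protein D). The members were the probes annotated to these symbols, 4 of the 22523 probes on the array, with 1 probe for each of 4 genes out of 13337. All 4 passed the filter on dim probes and were detected on all 71 arrays. Surfactant is the film of lipid and protein that lowers surface tension in the air spaces and keeps them open at low volume. It is made by alveolar type 2 cells, which pack it into lamellar bodies, and its production rises in the lung shortly before birth. The proteins B and C are small and hydrophobic and help the lipid to spread, whereas A and D are collectins, soluble lectins that bind microbes and, in the case of A, also surfactant lipid.

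The arrays carried total RNA of whole rat lung from the strains Lewis, Fisher and Brown Norway, taken at postnatal days 1, 7 and 14 (written PN1, PN7 and PN14) after exposure in utero to saline or to ovalbumin, an egg protein used as a model allergen. Each of the 18 groups of strain, age and exposure held 4 arrays, except Fisher PN7 saline with 3. Saline groups served as controls, and no group without an in utero exposure was analysed here. The labels name no litter, animal or sex, so every p-value below measures the spread between these samples, which may be technical. In bulk lung, fewer cells of a type and less RNA per cell cannot be told apart.

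The promoters of Sftpa1 and Sftpb are shown because only these members had an entry among the promoter sequences used. Both genes are known targets of NKX2-1, a transcription factor of lung epithelium. The sequences are from RefSeq (GRCr8), and 2 of the 4 genes matched there. The Sftpa1 stretch lies at chr16:17042014-17042263 on the plus strand and holds the 250 bases before the annotated start. The Sftpb stretch lies at chr4:105917338-105917494 on the plus strand and ends 94 bases before the start used here, because the annotated span of the gene begins there. Bases nearer to that start were searched for motifs but lie inside that span. Capitals mark the motifs CAAG (read as CTTG on the other strand), GCNCTNNAG (of the kind bound by NKX2-1) and TATAAA.
Sftpa1: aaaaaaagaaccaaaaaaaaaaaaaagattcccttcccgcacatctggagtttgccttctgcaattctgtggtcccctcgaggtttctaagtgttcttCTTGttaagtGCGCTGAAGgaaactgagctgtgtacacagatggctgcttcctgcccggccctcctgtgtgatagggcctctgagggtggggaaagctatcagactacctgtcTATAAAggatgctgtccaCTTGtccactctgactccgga
Sftpb: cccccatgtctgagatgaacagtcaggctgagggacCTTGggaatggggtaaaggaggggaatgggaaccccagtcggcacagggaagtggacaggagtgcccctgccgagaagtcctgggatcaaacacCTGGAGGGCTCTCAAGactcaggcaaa

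Both strands were searched over the 250 bases before each start. CAAG was found 2 times before Sftpa1 and 3 times before Sftpb, the third at 23 to 20 bases before the start and outside the stretch printed, against a share of 86.7% of all promoters with at least 1 match. GCNCTNNAG was found 1 time before Sftpa1 and 2 times before Sftpb, against 13.7% of promoters, and the 2 matches before Sftpb overlap each other and a copy of CAAG. The TATAAA motif lies 39 to 34 bases before the Sftpa1 start and was found in 12.9% of promoters, and TGTTTNC (the kind of motif bound by FOXA factors) was found 1 time before Sftpb, at 98 to 92 bases before the start and so only partly inside the stretch printed, and in 18.3% of promoters. A match describes the letters of the reference strain, which is Brown Norway, and shows no binding.

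Signals were background corrected, quantile normalized and put on a log2 scale, and each value below is a log2 level of 1 probe on 1 array or a difference of such levels. Before normalization the Sftpc probe read from 12081 to 41980 (median 29161), the Sftpb probe from 9478 to 38800 (median 18830) and the Sftpa1 probe from 4522 to 26643 (median 16739), while the highest signal of any probe on an array was 48778 to 63305. These 3 genes therefore lay near the top of the signal range, where quantile normalization may alter differences. Their normalized log2 values still ranged over 1.68 (Sftpa1), 1.45 (Sftpb) and 1.41 (Sftpc). The Sftpd probe read from 461 to 4136 (median 1342). Probes differ in binding, so levels of different genes were not set against each other.

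The spread among arrays of a group was 0.19 for Sftpa1, 0.21 for Sftpb, 0.17 for Sftpc and 0.27 for Sftpd (root mean square SD). The SD of the 18 group means was 0.39 for Sftpa1, 0.35 for Sftpb, 0.17 for Sftpc and 0.43 for Sftpd. Sftpc was thus the steadiest, with a SD of group means higher than that of 20.2% of the probes tested, against 79.5% for Sftpa1, 74.5% for Sftpb and 83.4% for Sftpd. Groups accounted for 84.7% of the sum of squares of Sftpa1, 78.1% of that of Sftpb, 75.8% of that of Sftpd and 53.7% of that of Sftpc.

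Across the series 10128 to 12437 probes were detected per array, and 4 arrays were doubted in an earlier analysis of these data: array d of Lewis PN7 saline, array a of Lewis PN1 ovalbumin, array a of Fisher PN1 saline and array c of Fisher PN7 saline. The summed signal of 6 liver genes was 28701 on Fisher PN1 saline a and 13150 on Lewis PN7 saline d, against at most 295 on the other Lewis PN7 saline arrays, and 6 thymus and lymphocyte genes summed to 17748 on Lewis PN1 ovalbumin a. Fisher PN7 saline c had a summed signal of 55193 over 5 epithelium markers, against 26321 and 25238 on the other arrays of its group. Several results that rest on 1 of these arrays are given with and without it. The 6 type 2 cell markers on the array, Sftpb and Sftpc among them, were detected on all 71 arrays, and so were the 5 epithelium markers.

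In order of the group means, Sftpa1 was lowest in Brown Norway PN7 saline (13.31 ± 0.25, mean and SD of log2 levels) and Brown Norway PN7 ovalbumin (13.33 ± 0.17) and highest in Fisher PN7 ovalbumin (14.32 ± 0.16) and Lewis PN14 ovalbumin (14.48 ± 0.17). Sftpb was lowest in Fisher PN14 saline (13.79 ± 0.25) and Fisher PN14 ovalbumin (13.88 ± 0.13) and highest in Brown Norway PN1 saline (14.91 ± 0.08) and Lewis PN7 ovalbumin (14.95 ± 0.06). Sftpc ran from Brown Norway PN7 saline (14.50 ± 0.45) to Fisher PN7 ovalbumin (15.14 ± 0.15), and Sftpd from Fisher PN14 saline (9.74 ± 0.22) to Fisher PN7 saline (11.19 ± 0.59). The last group included the doubted array c, with Sftpd at 11.86. Neighbours in these orders mostly differed by less than the spread within groups given above. Of the 17 steps between neighbours in each order, 1 was larger than that spread for Sftpa1, 2 for Sftpd and 0 for Sftpb and Sftpc. The largest step of Sftpa1, 0.29, parted the 5 lowest groups, all from Lewis PN1 or Brown Norway, from the rest, and that of Sftpd, 0.36, parted the 6 highest, all from Fisher or Lewis PN7, from the rest.

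**Figure D1:**
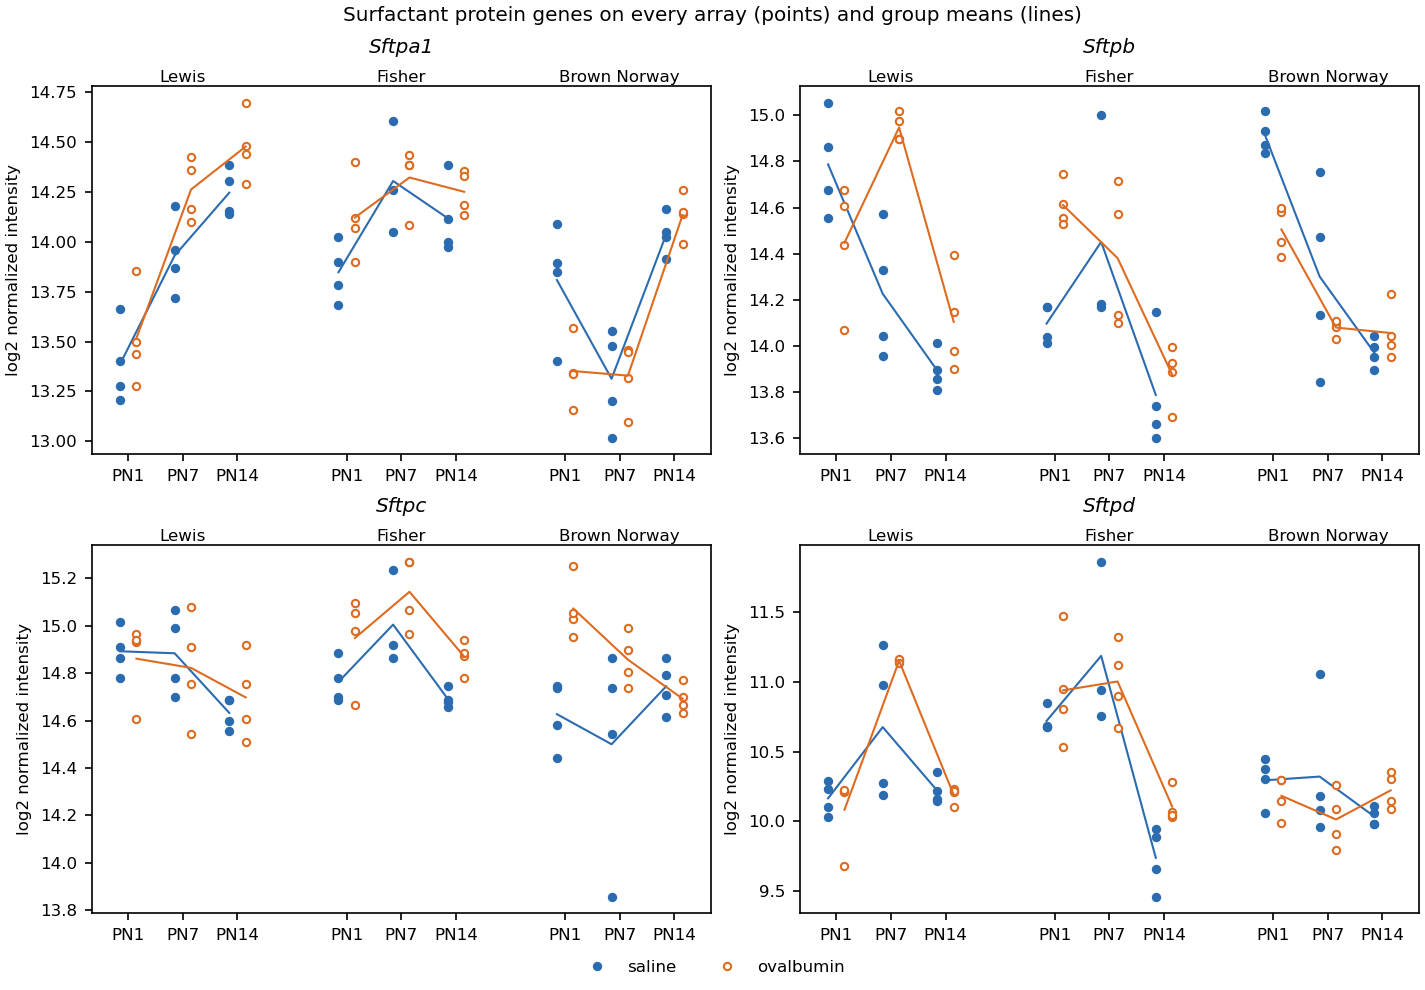
Normalized log2 intensity of the surfactant protein probes (vertical axes) on every array by strain and age (horizontal axes), with filled points for saline, open points for ovalbumin and lines through the group means. Sftpa1 climbs with age in Lewis and dips at PN7 in Brown Norway saline arrays, while in Brown Norway ovalbumin arrays it is low at both PN1 and PN7. Sftpb is highest at PN1 in Lewis and Brown Norway saline arrays, and Lewis PN7 ovalbumin arrays stand above Lewis PN7 saline arrays for Sftpb.

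The first comparison followed lung after saline exposure from PN1 to PN14. Averaged over the 3 strains, Sftpa1 rose by 0.45 ± 0.07 (log2 difference with its SE from the fit, 1.37-fold, adjusted p = 1.20e-06, limma) and Sftpb fell by 0.72 ± 0.08 (1.64-fold lower, adjusted p = 2.30e-10). Sftpd also fell, by 0.40 ± 0.11 (adjusted p = 0.00226). By strain, the Sftpa1 difference was 0.86 in Lewis, 0.27 in Fisher (adjusted p = 0.157) and 0.23 in Brown Norway (adjusted p = 0.183). Mean Sftpd levels at PN1 and PN14 were 10.721 and 9.738 in Fisher, 10.294 and 10.035 in Brown Norway, and 10.165 and 10.219 in Lewis. The difference of Sftpc was -0.07 ± 0.07 (adjusted p = 0.461), with a 95% interval of -0.21 to 0.07. A gene was called at an adjusted p under 0.05 over all 14019 probes tested, and 35.2% of those probes were called here, so 3 of 4 called genes stand against that background.

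The steps between ages differed by gene. From PN1 to PN7, where 47% of probes were called, Sftpb fell by 0.27 ± 0.09 (adjusted p = 0.0072) and Sftpd rose by 0.33 ± 0.11 (adjusted p = 0.00964), while Sftpa1 differed by 0.17 ± 0.08 (adjusted p = 0.0646) and Sftpc by 0.04 ± 0.07. Without Fisher PN7 saline c the Sftpd step was 0.22 (adjusted p = 0.0803). From PN7 to PN14, where 45% were called, Sftpa1 rose by 0.28 ± 0.08 (adjusted p = 0.00186), Sftpb fell by 0.44 ± 0.09 (adjusted p = 2.78e-05), Sftpd fell by 0.73 ± 0.11 (adjusted p = 2.18e-07) and Sftpc differed by -0.11 ± 0.07 (adjusted p = 0.222, and 0.0118 at -0.18 without Brown Norway PN7 saline b). The first step thus pointed up for Sftpd and down for Sftpb in this fit, and the second pointed down for both. The second Sftpd step, whose PN7 mean included Fisher PN7 saline c, kept its call without the doubted arrays.

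Age and slide overlapped in part. Saline arrays of PN1 lay on slides 1 and 3, those of PN7 on slides 2 and 4 and those of PN14 on slides 1 and 5, so only PN14 and PN1 shared a slide. That slide was shared only in Lewis. Within Fisher and within Brown Norway the ages shared no slide, so slide and age cannot be told apart there. With slide as a fixed term the PN7 minus PN1 difference of Sftpb was 0.047 (adjusted p = 0.825) and the PN14 minus PN7 difference of Sftpa1 was 0.16 (adjusted p = 0.455). For both steps slide and age cannot be told apart. The PN14 minus PN1 difference of Sftpd was -0.36 with slide as a fixed term (adjusted p = 0.184). Within slide 1, which held Lewis arrays of both ages, the PN14 minus PN1 difference was 0.73 ± 0.14 for Sftpa1 (adjusted p = 0.0191) and -1.05 ± 0.12 for Sftpb (adjusted p = 0.00477), with 2 arrays of each age.

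Sftpb, needed to form lamellar bodies and to spread the surfactant film, was highest among saline arrays in the newborn lungs of Lewis and Brown Norway rats. Lewis saline arrays read 14.55, 14.68, 14.86 and 15.05 at PN1 and 14.01, 13.81, 13.86 and 13.89 at PN14, a fall of 0.89 ± 0.15 (adjusted p = 3.46e-06), with every PN1 array above every PN14 array. Brown Norway saline arrays read 14.87, 14.84, 15.02 and 14.93 at PN1 and 14.04, 14.00, 13.89 and 13.95 at PN14, a fall of 0.94 ± 0.15 (adjusted p = 4.43e-07), again with no overlap. Fisher lungs started lower, at 14.04, 14.01, 14.17 and 14.17, and their PN14 arrays at 13.60, 13.66, 13.74 and 14.15 overlapped these values, with a difference of -0.31 ± 0.15 (adjusted p = 0.149). The share of all probes called between PN1 and PN14 was 17.5% in Lewis, 15.1% in Fisher and 31.2% in Brown Norway.

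At PN7 the Sftpb values were spread more widely. Lewis arrays read 13.96 and 14.04 on slide 4 and 14.33 and 14.57 on slide 2, with the highest just above the lowest PN1 array, and the fall from PN1 was 0.56 ± 0.15 (adjusted p = 0.00255, 28.9% of probes called). Brown Norway arrays read 13.84, 14.76, 14.13 and 14.47, all below the PN1 arrays, a fall of 0.61 ± 0.15 (adjusted p = 4.97e-04, 39% called). In Fisher the arrays read 14.18, 14.17 and 15.003, where the last is Fisher PN7 saline c, and the difference from PN1 was 0.35 ± 0.16 (adjusted p = 0.0836, 27.9% called). With slide as a fixed term the first-week step was -0.33 in Lewis (adjusted p = 0.119), -0.18 in Brown Norway (adjusted p = 0.505) and 0.65 in Fisher (adjusted p = 0.00214). The later fall of Sftpb in Fisher, 0.66 ± 0.16 from PN7 to PN14 (adjusted p = 6.58e-04, 36% called), was -0.39 (adjusted p = 0.0743) without that array. From PN7 to PN14 the difference of Sftpb was -0.33 ± 0.15 in Lewis (adjusted p = 0.126, 11% called) and -0.33 ± 0.15 in Brown Norway (adjusted p = 0.102, 20% called).

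Sftpc encodes the hydrophobic protein C, whose transcript is a widely used marker of alveolar type 2 cells. Its group means in saline arrays lay between 14.50 (Brown Norway PN7) and 15.005 (Fisher PN7). Single saline arrays ran from 13.86 to 15.23, in the same groups. Lewis arrays read 14.86, 14.78, 15.02 and 14.91 at PN1 and 14.69, 14.69, 14.60 and 14.55 at PN14, without overlap, but the difference of -0.26 ± 0.12 did not pass the test (adjusted p = 0.132). Fisher arrays lay between 14.69 and 14.89 at PN1 and between 14.66 and 14.75 at PN14, and Brown Norway arrays between 14.44 and 14.75 at PN1 and between 14.62 and 14.86 at PN14. The lowest Sftpc value of the series, 13.86, came from Brown Norway PN7 saline b, the array that was highest of its group in Sftpb (14.76) and Sftpd (11.06).

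Sftpa1 encodes the main collectin of surfactant. Among the 4 genes, its age profile after saline had the lowest adjusted p for a difference between strains (8.84e-06, F test). In Lewis Sftpa1 climbed from 13.21, 13.28, 13.40 and 13.66 at PN1 through 13.72, 13.87, 13.96 and 14.18 at PN7 to 14.39, 14.14, 14.31 and 14.15 at PN14. Every Lewis PN7 array lay above every PN1 array (0.55 ± 0.13, adjusted p = 0.00103), and the whole rise came to 0.86 ± 0.13 (1.82-fold, adjusted p = 6.80e-07). In Brown Norway the values were 14.09, 13.85, 13.40 and 13.89 at PN1, then 13.20, 13.02, 13.48 and 13.55 at PN7, then 14.05, 14.16, 13.91 and 14.02 at PN14. Sftpa1 thus fell by 0.50 ± 0.13 in Brown Norway in the first week (adjusted p = 0.00149) and rose by 0.72 ± 0.13 in the second (adjusted p = 4.00e-05), when the groups did not overlap. With slide as a fixed term these steps were -0.28 (adjusted p = 0.287) and 0.56 (adjusted p = 0.0516), and the groups compared shared no slide. Fisher arrays read 13.78, 14.02, 13.68 and 13.90 at PN1 and 14.05, 14.26 and 14.61 at PN7, a rise of 0.46 ± 0.14 (adjusted p = 0.0105) that was 0.31 (adjusted p = 0.161) without Fisher PN7 saline c, and PN14 differed from PN7 by -0.19 ± 0.14.

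Sftpd encodes the other collectin, which binds sugars on microbes and is made in type 2 and in airway cells. Among the 4 genes and 3 strains, its fall in Fisher was the largest age difference in saline arrays. Fisher saline arrays read 10.67, 10.68, 10.68 and 10.85 at PN1, 10.95, 10.75 and 11.86 at PN7 and 9.89, 9.95, 9.46 and 9.66 at PN14. All PN14 arrays lay below all earlier Fisher arrays, by 1.45 ± 0.20 from PN7 (2.73-fold lower, adjusted p = 1.62e-07) and by 0.98 ± 0.19 from PN1 (adjusted p = 9.45e-05). The PN7 mean included the doubted Fisher PN7 saline c (11.86), while the other PN7 arrays read 10.95 and 10.75, so that array enlarged the fall from PN7. The call of that fall was kept without the doubted arrays. Fisher PN14 saline arrays shared no slide with the earlier ages, so slide and age cannot be told apart here. In Brown Norway no step passed the test, with PN1 arrays at 10.06 to 10.44, PN7 arrays at 9.96 to 11.06 and PN14 arrays at 9.98 to 10.11. In Lewis the PN7 arrays parted by slide, at 10.27 and 10.19 on slide 4 and at 11.27 and 10.98 on slide 2, and the PN7 minus PN1 difference of 0.51 ± 0.19 (adjusted p = 0.0304) lost its call without 1 array in 5 of 8 cases, down to 0.32.

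**Figure D2:**
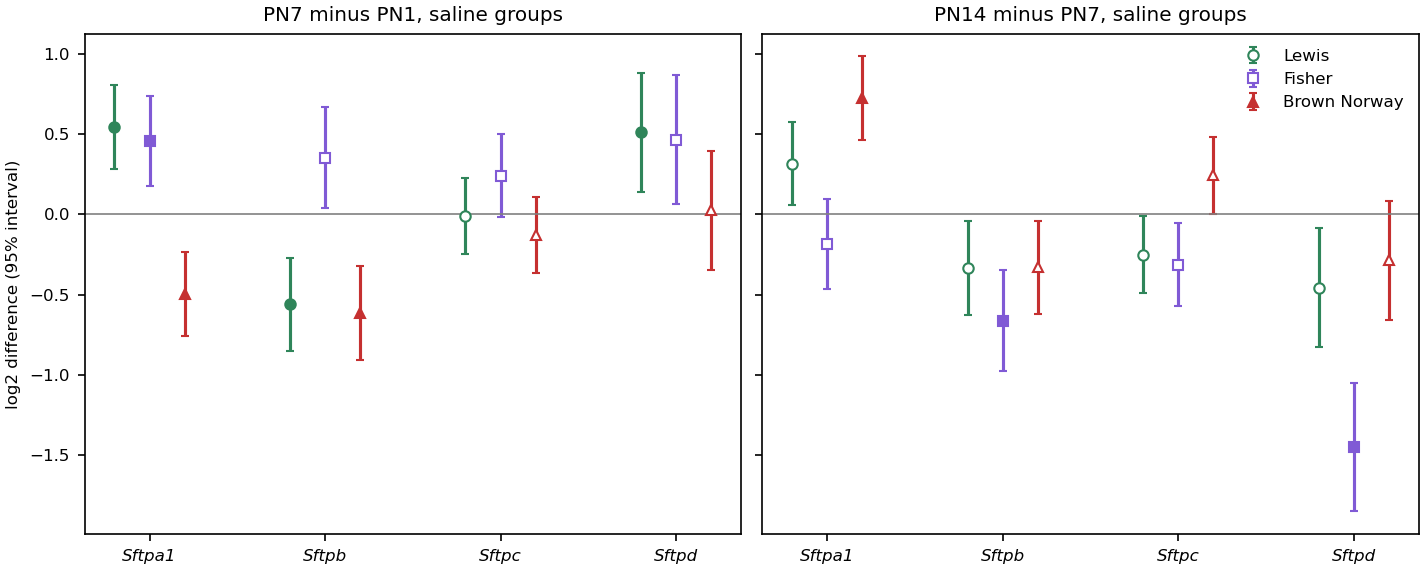
Log2 difference between ages in saline arrays (vertical axes) for each surfactant protein gene and strain, with 95% intervals from the fit; filled symbols have an adjusted p below 0.05. The first-week step of Sftpa1 points up in Lewis (0.55) and Fisher (0.46) and down in Brown Norway (-0.50), and the second-week step of Sftpd in Fisher (-1.45) lies lowest.

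The difference of the age profile between strains was tested as such, with an F test over the 4 strain by age terms in saline arrays. It was called for all 4 genes, at an adjusted p of 8.84e-06 for Sftpa1, 0.00109 for Sftpd, 0.00147 for Sftpb and 0.0311 for Sftpc, against 37% of all probes. In ovalbumin arrays, which are separate samples, the same test was called for Sftpd (adjusted p = 2.14e-05), Sftpa1 (adjusted p = 2.63e-05) and Sftpb (adjusted p = 9.68e-04) but not for Sftpc (adjusted p = 0.273), against 34.3% of probes.

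The age steps after ovalbumin exposure gave a second reading of the same ages. Averaged over strains, Sftpa1 rose by 0.31 ± 0.07 from PN1 to PN7 (adjusted p = 0.00109, 31% of probes called) and by 0.62 ± 0.07 from PN1 to PN14 (adjusted p = 5.19e-10, 32.4% called). Sftpb fell by 0.46 ± 0.08 from PN7 to PN14 (adjusted p = 1.75e-05, 36.5% called) and by 0.51 ± 0.08 over both weeks (adjusted p = 1.48e-06), with -0.05 ± 0.08 in the first week. Sftpd rose by 0.32 ± 0.11 (adjusted p = 0.0171) and then fell by 0.55 ± 0.11 (adjusted p = 4.24e-05), and Sftpc fell by 0.19 ± 0.07 in the second week (adjusted p = 0.0273). Mean Sftpd levels at PN1 and PN7 were 10.083 and 11.152 in Lewis, 10.940 and 11.004 in Fisher, and 10.183 and 10.013 in Brown Norway. The Lewis PN1 mean included the doubted array a (9.68). With arrays centred on their median in place of quantile normalization, the Sftpd rise was 0.21 (adjusted p = 0.203) with background correction and 0.12 (adjusted p = 0.546) on raw signals. Each step of the strain averages of Sftpa1, Sftpb and Sftpd called after both exposures had the same direction after both. Within Lewis the first-week step of Sftpb was called in opposite directions, at -0.56 after saline and 0.50 after ovalbumin. With slide as a fixed term the second-week fall of Sftpb after ovalbumin was -0.41 (adjusted p = 0.123), its fall over both weeks -0.39 (adjusted p = 0.159) and that of Sftpc in the second week -0.26 (adjusted p = 0.306).

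Within strains the course of the ovalbumin arrays varied. In Lewis, Sftpb rose in the first week, from 14.07, 14.44, 14.61 and 14.68 at PN1 to 14.90, 14.90, 14.98 and 15.02 at PN7 (0.50 ± 0.15, adjusted p = 0.00774, 24.4% called), and then fell to 14.39, 13.98, 13.90 and 14.15 at PN14 (by 0.84 ± 0.15, adjusted p = 5.19e-06, 31.7% called). Without Lewis PN1 ovalbumin a, the array with the thymus signal, the first step was 0.37 (adjusted p = 0.0754). Over both weeks in Lewis, where 14.2% were called, Sftpa1 rose by 0.96 ± 0.13 (adjusted p = 6.62e-08). In Brown Norway, Sftpa1 stayed low at PN7, at 13.46, 13.45, 13.31 and 13.10, and rose to 14.14, 13.99, 14.26 and 14.15 at PN14 (0.81 ± 0.13, adjusted p = 1.56e-05, 9.93% called). In Fisher, Sftpd fell by 0.90 ± 0.19 from PN7 to PN14 (adjusted p = 1.81e-04, 30.7% called), with PN7 arrays at 10.67 to 11.32 all above PN14 arrays at 10.03 to 10.28.

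The second comparison asked how the strains differed after saline exposure. Averaged over ages, Brown Norway lungs held less Sftpa1 than Fisher lungs (-0.37 ± 0.08, adjusted p = 1.12e-04), less Sftpd (-0.33 ± 0.11, adjusted p = 0.0156), less Sftpc (-0.20 ± 0.07, adjusted p = 0.0273) and more Sftpb (0.28 ± 0.09, adjusted p = 0.00838), against 32.2% of probes called. The Sftpd difference was -0.22 (adjusted p = 0.113) without Fisher PN7 saline c, and the Sftpc difference was -0.16 (adjusted p = 0.0964) without that array and -0.12 (adjusted p = 0.101) without Brown Norway PN7 saline b. Its call was also lost without Brown Norway PN1 saline a (adjusted p = 0.0573) and without Brown Norway PN14 saline c (adjusted p = 0.0504). Fisher against Lewis gave 15.6% of probes and only Sftpa1 among these genes (0.24 ± 0.08, adjusted p = 0.0266, and 0.19 at 0.107 without Fisher PN7 saline c). Brown Norway against Lewis gave 23.4% of probes and none of the 4 genes, with Sftpc at -0.18 ± 0.07 (adjusted p = 0.0507). Cell type markers also differed between Brown Norway and Fisher lungs: 4 of 6 club cell, 4 of 7 ciliated cell, 4 of 4 smooth muscle and myofibroblast, 3 of 6 liver and 3 of 6 heart and skeletal muscle markers were lower in Brown Norway, and 5 of 10 type 1 cell and 3 of 4 endothelium markers were higher. Of the 6 type 2 cell markers 1 was higher (Sftpb itself) and 1 lower (Sftpc itself). The part of these markers in the strain differences was not tested.

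At PN1 the strains parted most clearly in Sftpb. Fisher lungs held less Sftpb than Brown Norway lungs by 0.82 ± 0.15 (Brown Norway higher 1.76-fold, adjusted p = 8.62e-06, 30.9% called) and less than Lewis lungs (-0.69 ± 0.15, adjusted p = 3.02e-04, 17.9% called), and no Fisher array reached the lowest array of either strain. Within slide 1 and within slide 3 the Brown Norway minus Fisher difference of Sftpb was 0.80 and 0.83. Fisher lungs held more Sftpd than Lewis lungs (0.56 ± 0.19, adjusted p = 0.0272), also without overlap, and more Sftpa1 (0.46 ± 0.13, adjusted p = 0.00755). Brown Norway lungs held more Sftpa1 than Lewis lungs (0.42 ± 0.13, adjusted p = 0.0109, 26.6% called), a difference that was 0.33 (adjusted p = 0.071) without Brown Norway PN1 saline a. Within slide 1 this difference was 0.12 (adjusted p = 0.669). The Fisher minus Lewis differences there were 0.26 for Sftpa1 (adjusted p = 0.331) and 0.50 for Sftpd (adjusted p = 0.125). Within slide 3 these calls were kept.

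At PN7 Sftpa1 set Brown Norway apart. Its arrays, at most 13.55, lay below every Lewis array (-0.62 ± 0.13, adjusted p = 3.56e-04, 16.6% called) and every Fisher array (-0.99 ± 0.14, 1.99-fold lower, adjusted p = 1.14e-07, 29.2% called). Within slide 4, which held all these Brown Norway arrays, the difference from Lewis was -0.48 (adjusted p = 0.356), while the call against Fisher was kept. Sftpd was lower in Brown Norway than in Fisher by 0.87 ± 0.20 (adjusted p = 5.96e-04), or by 0.53 (adjusted p = 0.0704) without Fisher PN7 saline c. Sftpc was lower in Brown Norway than in Fisher (-0.50 ± 0.13, adjusted p = 0.00187) and in Lewis (-0.38 ± 0.12, adjusted p = 0.0191), and without Brown Norway PN7 saline b these differences were -0.29 (adjusted p = 0.0468) and -0.17 (adjusted p = 0.350). Without Fisher PN7 saline c the difference from Fisher was -0.39 and just missed the threshold (adjusted p = 0.0502), and the call against Lewis was also lost without Lewis PN7 saline c or d. On slide 4 alone the Sftpd (-0.53) and Sftpc (-0.39) differences from Fisher and the Sftpc difference from Lewis (-0.24) were not called. Fisher and Lewis arrays gave no call among these genes at PN7 (17% of probes called), but Sftpa1 and Sftpd were higher in Fisher with slide as a fixed term (0.41, adjusted p = 0.0291, and 0.61, adjusted p = 0.00953), as a random block (0.38, adjusted p = 0.0414, and 0.54, adjusted p = 0.038) and on slide 4 alone (0.36, adjusted p = 0.0205, and 0.62, adjusted p = 0.00204).

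The low Sftpa1 of Brown Norway at PN7 was present after ovalbumin too. There Brown Norway arrays lay below all Lewis arrays (-0.93 ± 0.13, adjusted p = 2.26e-08, 38.0% called) and below all Fisher arrays (-0.99 ± 0.13, adjusted p = 1.39e-08, 28.2% called). Brown Norway and Fisher ovalbumin arrays of PN7 shared no slide, so strain and slide cannot be told apart between them. Sftpd was also lower in Brown Norway, by 1.14 ± 0.19 against Lewis (adjusted p = 8.71e-07) and by 0.99 ± 0.19 against Fisher (adjusted p = 3.12e-05), in both cases without overlap. Sftpb was higher in Lewis than in Brown Norway (Brown Norway -0.87 ± 0.15, adjusted p = 1.66e-06) and than in Fisher (Fisher -0.57 ± 0.15, adjusted p = 0.00128, 39.3% called). By PN14 the strain differences after saline had narrowed for all probes, with 5.66% called for Brown Norway against Lewis, 3.89% for Fisher against Lewis and 6.41% for Brown Norway against Fisher, and no surfactant protein gene was called. The lowest adjusted p there was 0.184 for Sftpd, where Fisher arrays all lay below Lewis arrays (-0.48 ± 0.19).

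The third comparison set ovalbumin against saline exposure in utero. Averaged over strains and ages, Sftpc was higher after ovalbumin by 0.14 ± 0.04 (1.10-fold, adjusted p = 0.0338, 4.78% of probes called), with 95% bounds of 0.06 and 0.22. The other genes differed by 0.09 ± 0.04 (Sftpa1), 0.06 ± 0.05 (Sftpb) and 0.06 ± 0.06 (Sftpd), with adjusted p-values of 0.272, 0.513 and 0.662. The Sftpc call was lost with slide as a fixed term (0.094, adjusted p = 0.498) and with centring on each array's median in place of quantile normalization (0.069, adjusted p = 0.484). By age, Sftpc was called at PN1 (0.20 ± 0.07, adjusted p = 0.0488, 10.9% called), and no member was called at PN7 (22.6% called) or at PN14 (0.0143% called). At PN7, however, the difference of Sftpb was 0.14 on all arrays, 0.24 without Fisher PN7 saline c (adjusted p = 0.0308) and 0.27 without the 4 doubted arrays (adjusted p = 0.0072), when Sftpc was called as well (0.20, adjusted p = 0.035). By strain, averaged over ages, Sftpa1 was called in Lewis (0.23 ± 0.07, adjusted p = 0.0322, 11.9% called), Sftpc in Brown Norway (0.25 ± 0.07, adjusted p = 0.0156, 7.92% called) and none in Fisher (2.19% called). Sftpb in Fisher was 0.18 on all arrays and 0.27 without Fisher PN7 saline c (adjusted p = 0.047), and in Lewis it became called without the 4 doubted arrays (0.28, adjusted p = 0.0076). The Sftpc call in Brown Norway was lost under both median centrings (adjusted p = 0.101 and 0.108) and with slide as a fixed term (0.17, adjusted p = 0.386), and the Sftpa1 call in Lewis under both centrings (0.097 and 0.14) and with slide as a fixed term (0.27, adjusted p = 0.0976). Without 1 array the call was lost in 6 of 71 cases for the mean difference of Sftpc, in 17 of 24 for Sftpc at PN1 and in 9 of 24 for Sftpa1 in Lewis.

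The clearest exposure difference of a surfactant protein gene was that of Sftpb in Lewis at PN7. Ovalbumin arrays read 14.90, 14.90, 14.98 and 15.02 and saline arrays 13.96, 14.04, 14.33 and 14.57, so that every ovalbumin array lay above every saline array. The difference was 0.72 ± 0.15 (1.65-fold, adjusted p = 6.22e-05) and stayed between 0.63 and 0.84 when any 1 array was left out. Sftpd read 11.15, 11.16, 11.16 and 11.14 after ovalbumin and 10.27, 10.19, 11.27 and 10.98 after saline, with overlap (0.48 ± 0.19, adjusted p = 0.0381). Sftpa1 read 14.36, 14.16, 14.10 and 14.43 after ovalbumin and 13.72, 13.87, 13.96 and 14.18 after saline (0.33 ± 0.13, adjusted p = 0.0389), and Sftpc differed by -0.06 ± 0.12. In this comparison 35.2% of all probes were called. The calls of Sftpa1 and Sftpd were lost without 1 array in 5 of 8 and in 6 of 8 cases. Both calls were also lost with median centring of background-corrected signals (0.11 and 0.35) and of raw signals (0.18 and 0.39).

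Slides 2 and 4 each held 2 ovalbumin and 2 saline arrays of Lewis PN7, so the comparison could be made within each slide. On slide 4 the difference was 0.90 ± 0.08 for Sftpb (adjusted p = 2.21e-04), 0.92 ± 0.09 for Sftpd (adjusted p = 4.13e-04) and 0.47 ± 0.10 for Sftpa1 (adjusted p = 0.0107). On slide 2 it was 0.54 ± 0.14 for Sftpb (adjusted p = 0.0905), 0.03 ± 0.18 for Sftpd (adjusted p = 0.937) and 0.19 ± 0.17 for Sftpa1 (adjusted p = 0.514). Sftpb was higher after ovalbumin on both slides, though called only on slide 4, whereas the Sftpd difference came from slide 4. The saline arrays of slide 2 included the doubted Lewis PN7 saline d.

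**Figure D3:**
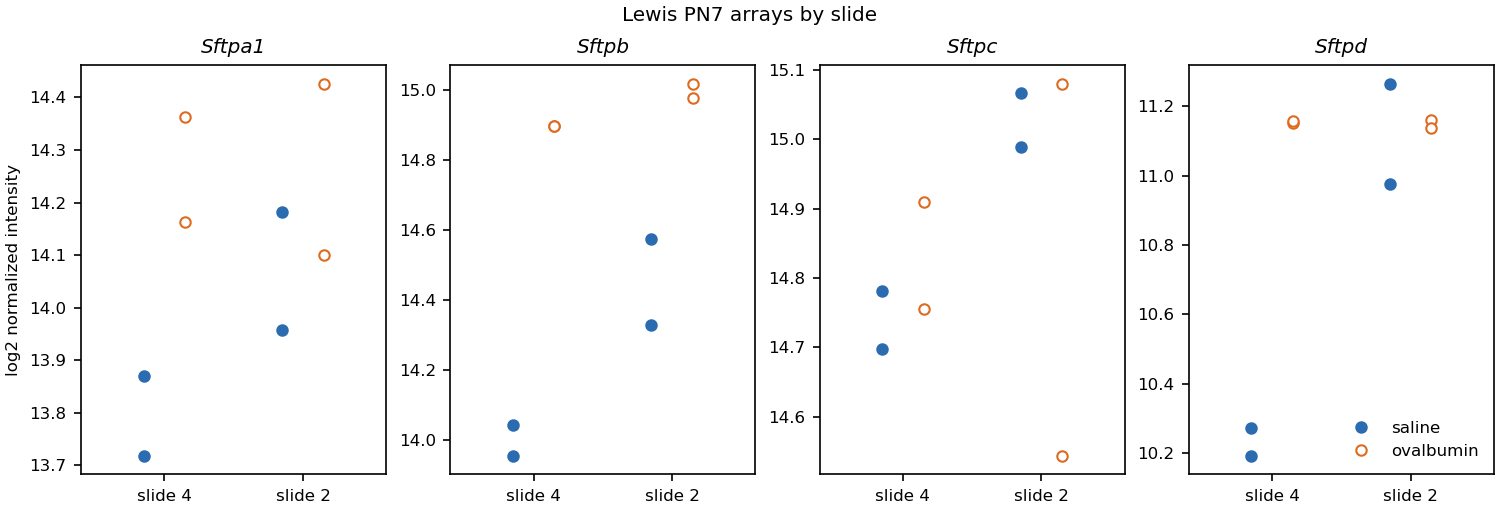
Normalized log2 intensity (vertical axes) of the surfactant protein probes on the 8 Lewis PN7 arrays, split by slide, with filled points for saline and open points for ovalbumin. For Sftpb both ovalbumin arrays lie above both saline arrays on each slide, and for Sftpd the saline arrays of slide 4 (10.19 and 10.27) lie apart from those of slide 2 (10.98 and 11.27).

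Other genes moved with Sftpb in this comparison, where 35.2% of all probes were called. Of 18 genes of surfactant assembly and lamellar bodies that were tested, the 4 surfactant protein genes included, 11 were higher after ovalbumin and 0 lower in Lewis at PN7 (median 0.46, against 0.01 for all probes). Among them were the phospholipid enzyme Cds1 (1.14 ± 0.14), the choline kinase Chka (1.22 ± 0.21), the phosphate transporter Slc34a2 (0.83 ± 0.17) and the lecithin-remodelling enzyme Lpcat1 (0.44 ± 0.13), while the lamellar body protein Lamp3 differed by 0.14 ± 0.15 and the protein B protease Napsa by 0.23 ± 0.16. Markers of epithelium in general moved the same way: 4 of 5 were higher and 0 lower (median 0.65), and their summed signal was 36909 to 41164 after ovalbumin against 19446 to 31263 after saline. Of 7 ciliated cell markers 4 were higher and 0 lower, of 6 club cell markers 1 was higher, and of 4 smooth muscle and myofibroblast markers 3 were lower (median -1.41). Of 13 regulators of type 2 cells 7 were higher and 0 lower. Of 6 type 2 cell markers 3 were higher, Sftpb among them, and of 4 endothelium markers 2, with 0 lower. Of 10 type 1 cell markers 3 were higher and 1 lower, and of 5 macrophage markers 2 were higher and 1 lower. Their part in the Sftpb difference was not tested.

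Brown Norway lungs at PN1 showed a split among the surfactant protein genes. After ovalbumin Sftpc was higher, at 15.03, 14.95, 15.25 and 15.05 against 14.44, 14.75, 14.58 and 14.74 after saline, with no overlap (0.44 ± 0.12, 1.36-fold, adjusted p = 0.00319, 26.3% of probes called). Sftpb was lower, at 14.58, 14.45, 14.60 and 14.39 against 14.87, 14.84, 15.02 and 14.93, also with no overlap (-0.41 ± 0.15, adjusted p = 0.0294, above the threshold without 1 array in 4 of 8 cases). Sftpa1 was lower as well, at 13.34, 13.16, 13.57 and 13.34 against 14.09, 13.85, 13.40 and 13.89, with 1 saline array inside the ovalbumin range (-0.46 ± 0.13, adjusted p = 0.00546), and Sftpd differed by -0.11 ± 0.19. The Sftpc difference was 0.22 (adjusted p = 0.315) when arrays were centred on their median in place of quantile normalization, under which the 200 brightest probes shifted by -0.17. Under the same centring the differences of Sftpa1 and Sftpb were -0.61 and -0.59. Within slide 3, the only slide with 2 arrays of each group, Sftpa1 differed by -0.72, Sftpb by -0.34 and Sftpc by 0.40, with adjusted p-values of 0.034, 0.102 and 0.12.

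In the same Brown Norway PN1 lungs 10 of the 18 assembly and lamellar body genes were lower and 2 higher after ovalbumin (median -0.38, against 0.00 for all probes). Sftpa1 and Sftpb were among those lower, and Sftpc was among those higher. Of all probes 26.3% were called. The lipoprotein lipase Lpl (-1.42 ± 0.15), the potassium channel Kcnj15 (-1.40 ± 0.18) and the lipid transporter Abca1 (-1.70 ± 0.25) fell, and the desaturase Scd rose (1.11 ± 0.23). Epithelium markers fell in 4 of 5 cases (median -0.57), with a summed signal of 23890 to 27781 after ovalbumin and 33244 to 39811 after saline. Smooth muscle and myofibroblast markers rose in 3 of 4 cases (median 0.90), 2 of 4 endothelium markers fell and 1 rose, and 3 of 10 type 1 cell markers fell and 1 rose. The summed signal of the 6 type 2 cell markers, which include Sftpb and Sftpc, was 97266 to 112020 after ovalbumin and 92926 to 104830 after saline. The part of these marker lists in the differences was not tested.

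In Fisher at PN1 Sftpb moved the other way. It read 14.62, 14.75, 14.55 and 14.53 after ovalbumin and 14.04, 14.01, 14.17 and 14.17 after saline, with no overlap (0.51 ± 0.15, 1.43-fold, adjusted p = 0.0358, 2.75% of probes called). The adjusted p rose past the threshold without 1 array in 6 of 8 cases, up to 0.147, while the difference stayed between 0.47 and 0.54. Slc34a2 (0.73 ± 0.17), Lamp3 (0.51 ± 0.15) and Nkx2-1, the gene of the transcription factor named above (1.55 ± 0.37), were also higher. In all, 4 of 18 assembly and lamellar body genes, Sftpb among them, were higher and 1 lower. Of 13 regulators of type 2 cells 2 were higher. So were 3 of 6 type 2 cell markers (Sftpb again included), 2 of 10 type 1 cell markers and 2 of 7 ciliated cell markers, against 0 of 5 epithelium markers. The part of these markers in the Sftpb difference was not tested. Lewis at PN1 gave no call among the surfactant protein genes (0.171% of probes called), with Sftpb at -0.34 ± 0.15.

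In the remaining strata no surfactant protein gene was called. These were Fisher PN7 (2% of probes called), Brown Norway PN7 (0.15%), Lewis PN14 (0%), Fisher PN14 (0.0143%) and Brown Norway PN14 (0.00713%). At PN14 ovalbumin and saline arrays shared no slide, so slide and exposure cannot be told apart there. The 95% intervals at PN14 still allowed differences up to 0.50 for Sftpb in Lewis and up to 0.74 for Sftpd in Fisher. At PN7 in Brown Norway, Sftpc differed by 0.36 ± 0.12 with an interval of 0.12 to 0.60, short of a call over all probes, and with slide as a fixed term Sftpb (-0.72, adjusted p = 0.0101) and Sftpd (-0.89, adjusted p = 0.0154) were called lower after ovalbumin there, in groups that shared no slide.

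**Figure D4:**
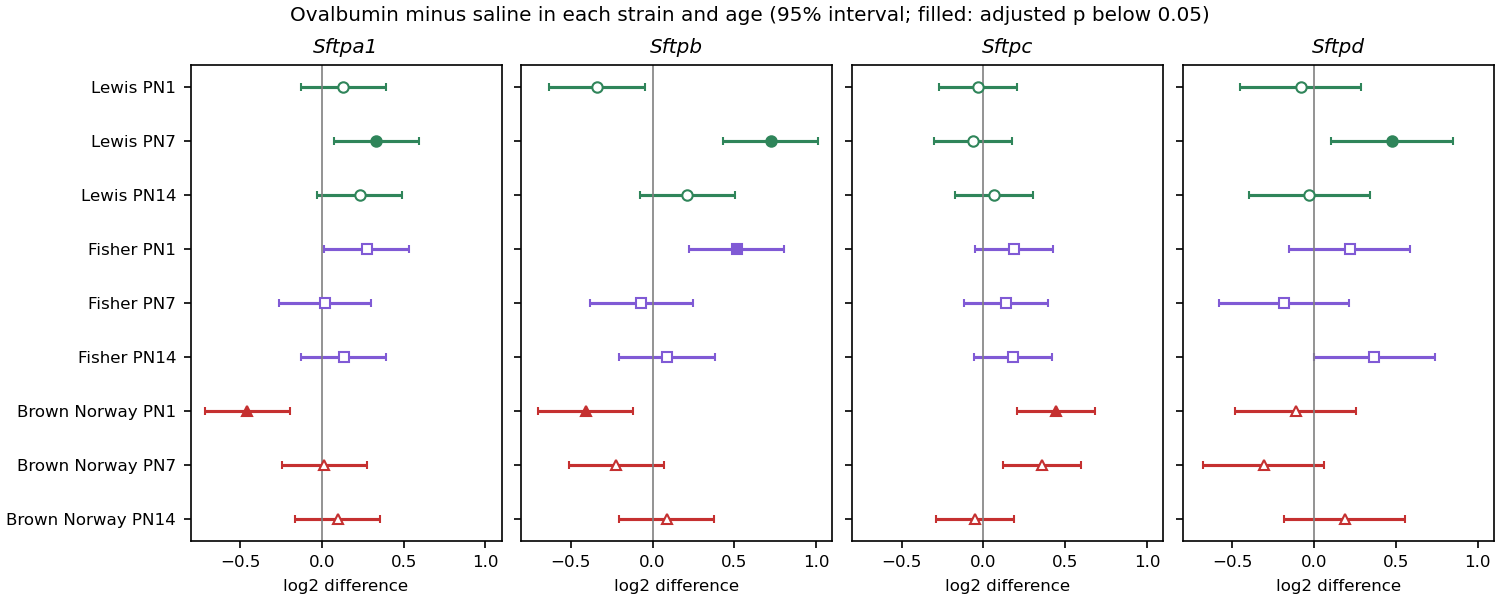
Ovalbumin minus saline log2 difference (horizontal axes) of each surfactant protein gene in each strain and age (rows), with 95% intervals from the fit and filled symbols for an adjusted p below 0.05. Sftpb points up in Lewis PN7 (0.72) and Fisher PN1 (0.51) and down in Brown Norway PN1 (-0.41), where Sftpc points up (0.44).

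Whether the exposure effect differed between strains was tested directly. At PN1 it differed for Sftpb (adjusted p = 6.24e-04) and Sftpa1 (adjusted p = 0.00433), against 22.6% of probes, and the adjusted p of Sftpc was 0.0838. At PN7 it differed for Sftpb (adjusted p = 6.65e-04) and Sftpd (adjusted p = 0.0386), against 25% of probes. The exposure effect differed between ages for Sftpb in Lewis (adjusted p = 2.53e-04, 25.6% of probes) and for Sftpa1 in Brown Norway (adjusted p = 0.0453, 17.1% of probes). Sftpb was thus the gene whose exposure difference varied by strain at both PN1 and PN7.

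Genes of the same pathway gave a setting for the age changes in saline lungs. Of the 18 assembly and lamellar body genes tested, 3 rose and 13 fell from PN1 to PN14 (median -0.49, against -0.01 for all probes, of which 35.2% were called). These counts include the surfactant protein genes, with Sftpa1 among the risers and Sftpb and Sftpd among the fallers. Lamp3 fell by 0.57 ± 0.09, Napsa by 0.49 ± 0.09, the protein B and C protease Ctsh by 0.50 ± 0.08 and Slc34a2 by 0.76 ± 0.10, all in the direction of Sftpb. The steepest falls among those of lowest p were in the phospholipase Pla2g1b (-1.51 ± 0.16) and Cds1 (-1.06 ± 0.08), while Scd (1.37 ± 0.13) and Abca1 (1.28 ± 0.15) rose together with Sftpa1. Abca3, the lipid pump of lamellar bodies, was not analysed here. Of 13 regulators of type 2 cells, 1 rose and 9 fell, among them Klf5 (-1.20 ± 0.12), Foxa2 (-0.80 ± 0.09), Fgfr2 (-0.69 ± 0.08) and Nkx2-1 (-0.65 ± 0.21), and the growth factor Fgf7 rose (0.88 ± 0.10).

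Epithelium markers fell in 5 of 5 cases over the same ages (median -0.56), 5 of 6 type 2 cell markers fell (median -0.53, Sftpb among them), and 5 of 10 type 1 cell markers rose and 1 fell. Thymus and lymphocyte genes rose in 6 of 6 cases (median 1.49). The part of these shifts in the changes of Sftpb, Sftpa1 and Sftpd was not tested. Among 11 other genes of the collectins, their receptors and pattern recognition, which leave out Sftpa1 and Sftpd, 5 rose and 3 fell from PN1 to PN14 (35.2% of all probes called), with Tlr2 (1.15 ± 0.10) and Tlr4 (0.67 ± 0.12), receptors of microbial products, among the risers. Among 8 genes of surfactant clearance by macrophages, 3 rose and 1 fell, a share near that of all probes, with the cholesterol exporter Abcg1 (0.51 ± 0.09) rising.

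**Figure D5:**
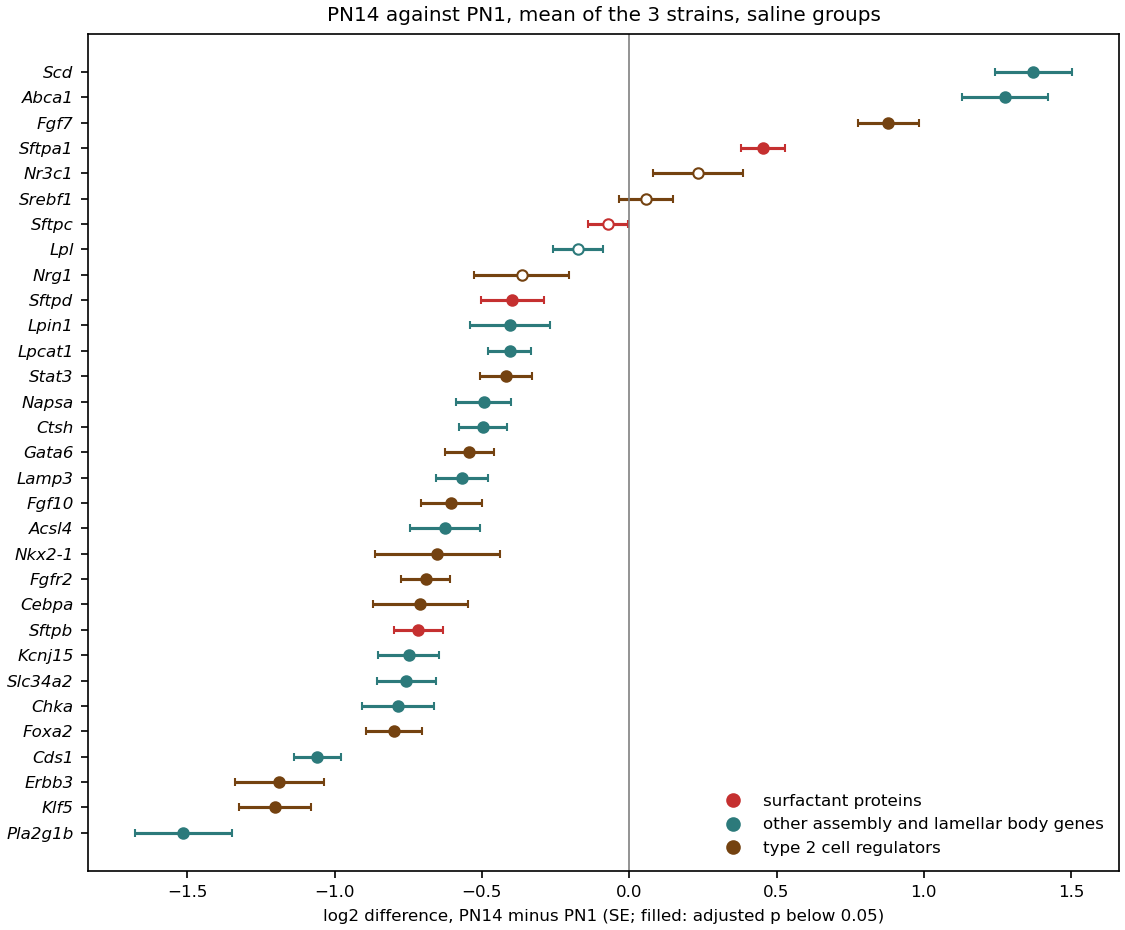
PN14 minus PN1 log2 difference in saline arrays, mean of the 3 strains (horizontal axis, with SE), for the surfactant protein genes, other assembly and lamellar body genes and regulators of type 2 cells (rows), filled where the adjusted p is below 0.05. Sftpb (-0.72) lies among the falling genes, Sftpa1 (0.45) among the few that rise, and Sftpc (-0.07) near 0.

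Within groups the surfactant protein genes deviated together only in part. Over 71 deviations from group means, Sftpb and Sftpd had the highest correlation (Pearson's r = 0.65, Spearman's rho = 0.52, adjusted p = 6e-05 by permutation over 6 pairs for each), and r was 0.54 without the 2 arrays farthest in Sftpb and 0.42 within group and slide. Sftpa1 had r = 0.44 with Sftpc (rho = 0.41) and r = 0.41 with Sftpb (rho = 0.46), and the latter was 0.21 within group and slide. Sftpc and Sftpd gave r = -0.02 (rho = 0.19, adjusted p = 0.83 for r), with -0.48 within group and slide. All pairs share arrays, depth and normalization.

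The genes most like each member were ranked by Pearson's r over the 18 group means, as a description. Spint1 (0.96), Zdhhc3 (0.96), Nob1 (0.95), Erbb2 (0.94) and Ppp1r1b (0.94) followed Sftpb most closely, with r over the 71 arrays of 0.86, 0.89, 0.87, 0.83 and 0.87. Sftpa1 was followed by Atp2a3 (0.87), Aplp2 (0.86), Epn3 (0.85), Fth1 (0.83) and Mocos (0.83), and Sftpd by Fam89b (0.89), C1qb (0.86), Camk1 (0.85), Tmem79 (0.84) and Wsb2 (0.84). Sftpc, whose group means differed least, had lower values, led by Cct5 (0.80), Ethe1 (0.80), Rhbg (0.78), B3gnt8 (0.76) and Fut4 (0.75). No surfactant protein gene was among the 5 most alike of another.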

How the data were processed

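Total RNA of whole rat lung was hybridized as biotinylated cRNA to Illumina bead arrays, 71 arrays on 6 slides. The authors deposited raw mean bead signal intensities and a detection p-value per probe and array, per the file headers. The deposited log2 values equal log2 raw signals after quantile normalization without background correction, to within 5e-05, and the submitters' processing notes name lumi. Bead numbers and bead standard errors per the file headers were used only to describe precision (median 39 to 47 beads per member probe).

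Raw signals were processed with neqc of limma 3.58.1 (offset 16, R 4.3.3, with the data.table package at version 1.17.8), and the test covered probes detected (p under 0.01) on 3 or more arrays. One limma model with 18 group means, moderated with a trend (53 residual degrees of freedom), gave all contrasts and F tests. P-values were adjusted by Benjamini-Hochberg over all 14019 probes tested and called under 0.05. The number of arrays limits the precision. Probe symbols come from the platform annotation (13793 of 22523 probes with 1 symbol, 0 with several). Figures used Python 3.11.15 and matplotlib 3.10.9. The fit was tested on simulated data.

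Members and gene lists were chosen with earlier results of these data known. Every member was described, with the 5 most alike genes of each, list counts, and up to 4 list members of lowest p besides Lamp3, Napsa, Ctsh, Lpcat1, Slc34a2 and Nkx2-1. The list counts of Lewis PN7 were added after the values were seen. Alternatives were the deposited log2 values, no background correction, median centring of background-corrected or raw signals, no filter, no trend, slide as a term, block or single slide, fits of only the groups compared, replicate letter as a block, leaving out 4 doubted arrays, and leaving out each array. Same-letter arrays of both exposures deviated together in all pairs (r over 0.1) only in Fisher PN7 (0.351, 0.433 and 0.340), and the meaning of a letter is not given in the labels. No arrays were identical, with correlations between arrays of 0.912 to 0.995.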

Additional observations from a re-analysis of the deposited data

Results flagged for a closer look

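In 6 of 68 sets of 4 arrays, 1 array lay far from the others (Dixon's test at its 95% critical value), where chance gives about 1 in 20. Lewis PN1 ovalbumin a was low in both Sftpd (9.68, others 10.21 to 10.22) and Sftpc (14.61, others 14.93 to 14.97). The same array carried the thymus and lymphocyte signal, and its part was not tested. Sftpa1 was low on Fisher PN7 ovalbumin b (14.08, others 14.39 to 14.44). Sftpd was high on Fisher PN1 saline d (10.85, others 10.67 to 10.68) and on Fisher PN14 ovalbumin c (10.28, others 10.03 to 10.07), and low on Lewis PN14 ovalbumin b (10.1, others 10.21 to 10.23).

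Effects that differed between groups by an F test were as follows. The age profile after saline differed between strains for Sftpa1 (adjusted p = 8.84e-06), Sftpd (0.00109), Sftpb (0.00147) and Sftpc (0.0311), and after ovalbumin for Sftpd (2.14e-05), Sftpa1 (2.63e-05) and Sftpb (9.68e-04). The exposure effect differed between strains at PN1 for Sftpb (6.24e-04) and Sftpa1 (0.00433), and at PN7 for Sftpb (6.65e-04) and Sftpd (0.0386). It differed between ages for Sftpb in Lewis (2.53e-04) and for Sftpa1 in Brown Norway (0.0453).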

How the results depend on the processing

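Each alternative was run on 4 genes in 64 comparisons. Calls, and the direction of called values, changed in 2 results with the deposited values, 2 without background correction, 7 without a filter, 2 without a trend, 3 with the replicate block, 13 with slide as a random block, 18 in fits of only the groups compared, 20 without the 4 doubted arrays, 27 and 31 with median centring of raw and of background-corrected signals, and 33 with slide as a fixed term. Leaving out 1 array kept the call in 3244 of 3408 values. The only reversal was Sftpb from PN1 to PN7, 0.047 with slide as a fixed term (-0.22 as a random block). The causes were not tested.

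With slide as a fixed term calls were also lost for Sftpa1 from PN7 to PN14 (0.16), Sftpd from PN1 to PN14 (-0.36) and the mean exposure difference of Sftpc (0.094, and 0.13 as a random block). Median centring of background-corrected and of raw signals gave a call for Sftpa1 in Brown Norway against Lewis (-0.24 and -0.25), and lost it for Sftpb in Brown Norway against Fisher (0.19 and 0.17), Sftpd from PN1 to PN7 (0.24 and 0.21) and the exposure difference of Sftpc (0.069 and 0.10). Raw centring also lost Sftpa1 in Fisher against Lewis (0.26) and Sftpd from PN1 to PN14 (-0.26). Sftpc in Brown Norway against Lewis became called with the deposited values (-0.18), no background correction (-0.18), both centrings (-0.27 and -0.29) and the replicate block (-0.18). The replicate block changed 2 other calls, both in Fisher saline arrays: Sftpb from PN1 to PN7 (0.39, adjusted p = 0.042) and Sftpc from PN7 to PN14 (-0.33, adjusted p = 0.034). Without the 4 doubted arrays Sftpb in Fisher against Lewis became called (-0.24), and calls were lost for Sftpa1 in Fisher against Lewis (0.22), Sftpc (-0.16) and Sftpd (-0.22) in Brown Norway against Fisher and Sftpd from PN1 to PN7 (0.18). Without a filter the Sftpc exposure difference of 0.14 had an adjusted p of 0.0581. In fits of only the groups compared, calls were lost for Sftpc in Brown Norway against Fisher (-0.20) and Sftpd from PN1 to PN7 (0.33).

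Leaving out each array gave ranges of 0.12 to 0.21 (Sftpa1), -0.37 to -0.22 (Sftpb) and 0.22 to 0.41 (Sftpd) from PN1 to PN7, and of -0.18 to -0.066 for Sftpc from PN7 to PN14. Against Lewis they were 0.19 to 0.28 (Sftpa1) and -0.28 to -0.14 (Sftpb) in Fisher and -0.22 to -0.11 (Sftpc) in Brown Norway. Brown Norway against Fisher gave -0.24 to -0.12 (Sftpc) and -0.41 to -0.22 (Sftpd), and the mean exposure difference of Sftpc was 0.11 to 0.15. Sftpa1, Sftpb and Sftpc lay near the top of the signal range, where quantile normalization may alter the size of a difference. For Sftpc in Brown Norway, median centring of background-corrected signals gave a smaller exposure difference at PN1 (0.22 against 0.44). It gave a larger first-week step after saline (-0.54 against -0.13).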
